A study of Mus musculus with 2 samples.

Results

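Photoreceptor precursors are newly born retinal neurons that have left the cell cycle and will become cones or rods. They were selected here from single-cell RNA-seq of mouse eye cups at e13.5 (day of embryonic development) by their own transcripts. A barcode, which stands for 1 droplet and usually 1 cell, was kept when it held at least 200 genes and at most 15% mitochondrial UMIs (unique molecular identifiers, counted mRNA molecules). It was called a photoreceptor precursor when it held a UMI of Crx, a UMI in at least 2 of Thrb, Rxrg, Prdm1, Neurod4, Neurod1 and Gngt2, and no UMI of Mlana or Tyr, genes of melanin-forming cells, or of Pou4f2, a gene of ganglion cells. The rule was met by 54 of 11893 passing barcodes, 26 of 5519 in the control library and 28 of 6374 in the mutant library.

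The control library held Myrf fl/fl eye cups, in which both Myrf alleles carry loxP sites but are not recombined. The mutant library held Rx>cre Myrf fl/fl eye cups, which carry the same alleles together with a Cre transgene driven by Rx, a gene of the early eye field from which both the neural retina and the retinal pigment epithelium (RPE) arise. Each library pooled 3 samples of 1 genotype after removal of the cornea, lens and optic nerve, so there was 1 library per genotype and the animals within it could not be separated. No test of genotype was therefore possible. All intervals below are 95% intervals for counting error only and say nothing of the spread between animals.

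Cones are among the first neurons made in the mouse retina, whereas most rods are made around birth. Otx2 and Crx are related homeodomain transcription factors that switch on photoreceptor genes, Prdm1 (Blimp1) holds back the bipolar cell fate in the same precursors, and Thrb and Rxrg encode nuclear receptors for thyroid hormone and retinoids that act in cones. Neurod1 and Neurod4 are basic helix-loop-helix (bHLH) factors of differentiating neurons, and Gngt2 encodes the gamma subunit of the cone transducin, the G protein that couples opsin to its effector. Myrf encodes a membrane-bound transcription factor best known from myelinating glia, and Tmem98 encodes a membrane protein that binds it.

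The 2 libraries were of similar depth. The files held 6039 control and 6754 mutant barcodes with a median of 10083 and 10638 UMIs. Photoreceptor precursors had a median of 12670.5 UMIs in the control (lowest 7274, highest 32328) and 11159.5 in the mutant (lowest 1896, highest 26905), and summed to 344587 and 322050 UMIs. Levels are given as CPM, UMIs scaled to a total of 1000000 per sum. The libraries shared 72 barcode sequences, none of them among the photoreceptor precursors.

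Myrf, the deleted gene, had 0 UMIs in the photoreceptor precursors of both libraries, which, taken as at most 3 UMIs, allows a level of up to 8.71 CPM in the control and 9.32 CPM in the mutant (10.7 and 11.5 CPM by the exact Poisson interval), so whether it was recombined in these cells could not be read from its transcript. Tmem98 had 10 control and 9 mutant UMIs (29.0 and 27.9 CPM, with intervals of 13.9 to 53.4 and 12.8 to 53.1).

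Several barcodes stood apart from the rest before any comparison. Control member 13 was the deepest (32328 UMIs), held 1 UMI of Crx and only 2 of the 6 further genes, lacked Otx2 and Atoh7, and carried 20 UMIs of the eye field gene Pax6. It was also the richest in cell cycle transcripts, with 90.6 UMIs of S and G2/M phase genes per 10000, against a median of 6.51 in the control and 7.45 in the mutant. Control members 1, 5 and 8 followed with 32.3, 38.4 and 30.6 per 10000. Mutant members 9 and 23 were shallow (1896 and 2906 UMIs), and member 9 reached 42.2 per 10000 on that small total. The 4 control members are called cycle-rich below, a limit of 30 per 10000 among members of at least 3000 UMIs that was set after the values were seen and removed no mutant member. Scrublet, a doublet caller, marked control members 5 and 19 and mutant member 3, but not control member 13. Values without some of these barcodes are given beside the results they bear on.

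Photoreceptor precursors made up 0.471% of passing barcodes in the control (interval 0.308 to 0.690) and 0.439% in the mutant (0.292 to 0.634). The difference, mutant minus control, was -0.0318 percentage points (-0.289 to 0.214), so no difference in share was detectable at this depth. Among barcodes that also counted as retinal by the marker sets described below, the shares were 1.06% (26 of 2446) and 0.979% (28 of 2860). Leaving out the 4 cycle-rich control members turned the difference to 0.0407 points (-0.204 to 0.278). In the mutant library haemoglobin genes took 11.6% of all UMIs against 5.996% in the control, and red blood cells enter the first denominator but not the second.

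The share depended on the depth of the barcodes. Barcodes of 10000 to 15000 UMIs held 20 of the 26 control and 14 of the 28 mutant photoreceptor precursors, which was 1.60% (0.981 to 2.46) and 0.834% (0.457 to 1.40) of the barcodes in that range. Between 6000 and 10000 UMIs the order was the opposite, with 2 of 502 control barcodes (0.398%) and 9 of 804 mutant barcodes (1.12%). No barcode of 3000 to 6000 UMIs met the rule in either library. Below 3000 UMIs 0 of 1333 control barcodes met it, against 2 of 1321 in the mutant. When every barcode with enough UMIs was thinned to 3000 before the rule was applied, a median of 14 of 4186 control and 13 of 5053 mutant barcodes met it over 20 draws. The difference ranged from -0.228 to 0.0143 points over the draws, and its interval held 0 in 19 of the 20.

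**Figure D1:**
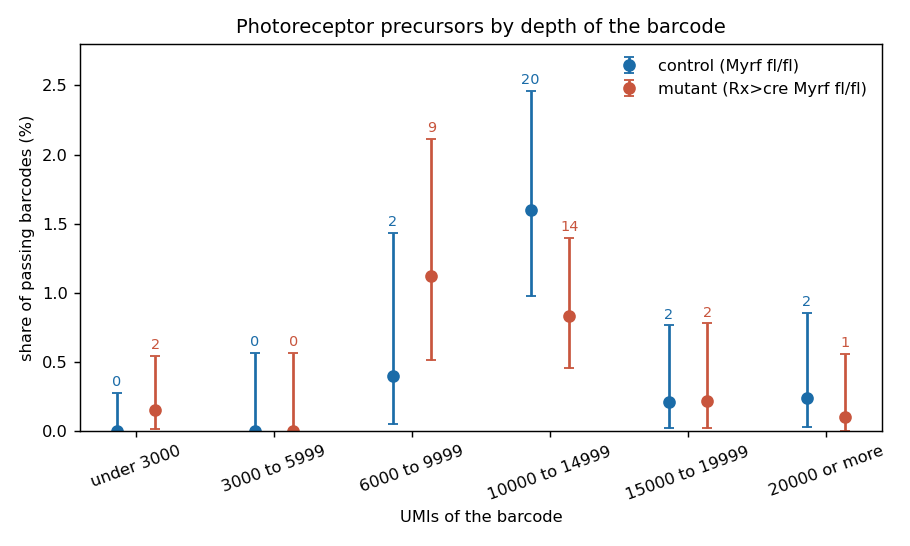
Share of passing barcodes that met the rule (y axis, %) by UMIs of the barcode (x axis), with the exact binomial 95% interval as bars and the number of photoreceptor precursors above each. The control is highest between 10000 and 15000 UMIs (1.60%), the mutant between 6000 and 10000 (1.12%).

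Barcodes on either side of the rule were counted as well. Among barcodes with Crx and none of the 3 excluded genes, 8 control and 20 mutant barcodes held none of the 6 further genes, 0 and 5 held 1, and 3 and 3 held 2, the lowest number that qualified. The other members held 3 to 6 of them, and all 6 were seen in 5 control and 3 mutant barcodes. A further 4 control and 3 mutant barcodes met the rest of the rule but held an excluded gene. Just outside the rule on the other side lay 54 control and 81 mutant barcodes with at least 2 of the 6 genes and no Crx. Of these 40.7% and 48.1% held Otx2, against 96.2% and 100% of the photoreceptor precursors, and their Hes6, a bHLH factor of committed neurogenic cells, stood at 1927 and 1239 CPM, against 900 and 736 CPM in the photoreceptor precursors.

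The genes of the rule are given first as a description, since they chose the barcodes. Crx ranged from 1 to 14 UMIs in the control (median 4, sum 114, 331 CPM) and from 1 to 7 in the mutant (median 2, sum 77, 239 CPM). Neurod1 was the most abundant with 676 and 664 CPM, in 25 of 26 and 26 of 28 barcodes. Neurod4 (418 and 432 CPM) was in 24 and 27 members and Prdm1 (235 and 292 CPM) in 24 and 26. The cone genes were patchier. Thrb was seen in 17 of 26 control and 16 of 28 mutant members (171 and 134 CPM), Rxrg in 9 and 6 (49.3 and 21.7 CPM), and Gngt2 in 9 and 13 (200 and 165 CPM). Of all UMIs of Crx among the 11893 barcodes, 68.5% were in the 54 photoreceptor precursors, against 52.6% for Neurod4, 50.4% for Prdm1, 23.4% for Thrb, 12.2% for Gngt2 and 8.45% for Rxrg.

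**Figure D2:**
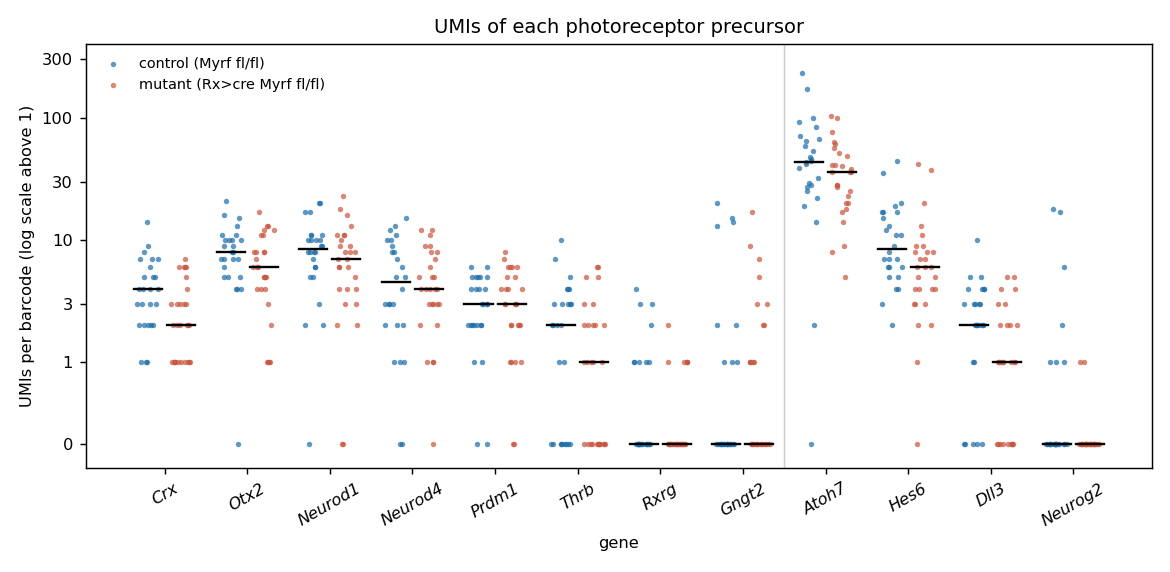
UMIs of the named genes (x axis) in each photoreceptor precursor (y axis, log scale above 1), 1 point per barcode in the control (blue) and mutant (red), with the median as a black line. Left of the grey line are the 7 genes of the rule and Otx2. Neurog2 is at 0 in most members, and 3 control members hold 41 of its 46 control UMIs.

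The label was checked against genes outside the rule. Otx2, the factor upstream of Crx, was in 25 of 26 control and 28 of 28 mutant members, at 644 CPM (562 to 735) and 581 CPM (500 to 670). In the other retinal marker sets described below Otx2 stayed between 7.89 and 40.9 CPM. In red blood cells, which should lack it, Otx2 was in 1.60% and 0.935% of barcodes. Their median was 22891.5 and 23080.5 UMIs, but haemoglobin genes took 84.9% and 83.0% of their UMIs. Only the small remainder could hold other transcripts. Whether free RNA gave these Otx2 UMIs was not tested. Lhx4, a LIM-homeodomain gene of cones and some bipolar cells, had 14 and 16 UMIs in the photoreceptor precursors, in 22 of the 54, and 3 UMIs in the other 11839 barcodes together. Control member 13 was the 1 member without Otx2.

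The list of mature photoreceptor genes was next. Of the 36 phototransduction and outer segment genes listed, 24 had no UMI in any photoreceptor precursor, among them the cone opsins Opn1sw and Opn1mw, cone arrestin Arr3, recoverin Rcvrn and the rod transducin subunit Gnat1. Among all genes of the files 59.7% had no UMI in them, so the count of the list was near the background. The cone transducin subunits Gnb3 and Gnat2 had 34.5 and 16.5 CPM over both libraries, against 0.512 and 0.227 CPM in all other barcodes. Cngb3, a subunit of the cone cyclic nucleotide-gated channel, had 19 UMIs in 12 members (28.5 CPM, against 0.490 CPM elsewhere). Abca4, the retinoid transporter of discs, had 48 UMIs in 24 members (72.0 against 3.95 CPM), and Rbp3, the interphotoreceptor retinoid-binding protein, 9 UMIs in 8 members. Cdhr1, a cadherin of the outer segment base, had 17 UMIs in 12 members against 11 UMIs in the other 11839 barcodes. The rod factor Nrl had 6 UMIs in 5 control and 2 UMIs in 2 mutant members, and its target Nr2e3 had 0.

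Levels outside the rule were next compared with all other passing barcodes of both libraries. Of 2009 genes with at least 50 UMIs in the photoreceptor precursors, 86 (4.28%) were at least 4-fold higher in them than in the rest. This floor on UMIs favours genes that are high in the members, so the count, which includes 6 genes of the rule, is a description. Samd11, a nuclear SAM-domain protein of the photoreceptor lineage that associates with Polycomb repressors, led with 209 and 177 CPM against 1.67 CPM in the rest (116-fold). It was followed by Platr17, Cntn1, a neural adhesion molecule, Ankrd33b, Cplx3, a complexin of ribbon synapses, and Reep6, a membrane-shaping protein of rods, with 138, 102, 123, 102 and 101 CPM over both libraries and folds of 94.4 to 53.2. Each of these 20 leading genes was higher in the photoreceptor precursors of either library on its own.

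Cadm3, Syp (synaptophysin), Chgb (chromogranin B), Cplx2 and Robo2, a receptor for Slit guidance cues, are genes of neuronal adhesion, secretion and wiring, and stood 45.1, 35.6, 29.5, 11.7 and 16.0-fold over the rest. Among regulators were Otx2 itself (29.7-fold), the homeodomain gene Meis2 (490 and 546 CPM, 25.8-fold), the Notch ligand Dll3 (194 and 127 CPM, 20.05-fold) and the antiproliferative gene Btg2 (441 and 376 CPM, 11.5-fold). Btbd17, Tmem158, Gdap1l1, Amer2 and Phf21b completed the list at 14.9, 13.1, 12.6, 12.3 and 12.2-fold.

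TAATCC is the core that Crx and Otx2 bind, and it was searched for on both strands (the reverse reads GGATTA) in RefSeq promoter windows of the GRCm38.p6 build, 250 bases before to 50 bases after each gene's start. Of 27025 genes with a window, 8.14% held it. Among those matched it was in 2 of 6 genes of the rule (Crx and Thrb), 5 of 16 of the 20 leading genes (Samd11, Ankrd33b, Cadm3, Syp and Otx2), 4 of 18 photoreceptor transcription factors and 10 of 25 phototransduction genes. A match describes letters and is not a binding site. The windows of Crx and of the leading genes Samd11 and Ankrd33b are shown as examples with the motif outside any annotated exon, all on the minus strand and written 5′ to 3′ with the motif in capitals. Syp also holds 1 motif outside annotated exons, 246 bases before its start, and is not shown. The stretch of Crx (chr7:15879969-15880205) lies upstream of the annotated exons of the gene (chr7:15865947-15879968) and holds 2 motifs, which begin 94 and 21 bases before the RefSeq start. That of Samd11 (chr4:156255353-156255567) lies within the gene's own span (chr4:156246966-156255657), in an intron of a longer annotated transcript, with motifs 193 and 67 bases before the start, and that of Ankrd33b (chr15:31367760-31368009) holds 1 motif 200 bases before it.
Crx: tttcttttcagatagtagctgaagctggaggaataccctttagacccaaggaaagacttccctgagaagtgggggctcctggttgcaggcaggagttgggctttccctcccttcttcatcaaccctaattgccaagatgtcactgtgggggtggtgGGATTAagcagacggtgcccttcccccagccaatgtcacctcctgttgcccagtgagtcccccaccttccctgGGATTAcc
Samd11: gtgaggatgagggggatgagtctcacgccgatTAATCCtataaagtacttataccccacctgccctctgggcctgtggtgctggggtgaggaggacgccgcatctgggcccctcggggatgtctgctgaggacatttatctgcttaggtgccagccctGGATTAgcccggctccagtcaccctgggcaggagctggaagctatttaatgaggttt
Ankrd33b: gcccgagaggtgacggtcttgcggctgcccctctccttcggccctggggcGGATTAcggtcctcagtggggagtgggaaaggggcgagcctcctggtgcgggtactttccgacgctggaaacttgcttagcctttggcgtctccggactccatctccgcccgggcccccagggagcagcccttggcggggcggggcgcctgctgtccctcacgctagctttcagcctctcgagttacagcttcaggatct

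To place the photoreceptor precursors among their neighbours, other retinal barcodes were sorted into marker sets. The ganglion set held Pou4f2 with at least 2 further ganglion cell genes (653 barcodes in both libraries), the amacrine and horizontal set at least 2 of Ptf1a, Prdm13, Tfap2a, Lhx1, Prox1, Onecut1 and Onecut2 with at least 1 of the first 3 named (156), the neurogenic set at least 2 of a list of neurogenic genes that included Atoh7, Neurog2, Dll1, Dll3, Hes6 and Olig2, together with a retinal gene (2230), and the progenitor set at least 3 of a list that included Sox2, Hes1, Fgf15, Sfrp2, Six6 and Rax, with no Atoh7 or Crx (2213). Values of these genes are set by that sorting. Against the neurogenic set 86 of 2009 genes (4.28%) were at least 4-fold higher in the photoreceptor precursors and 243 of 7824 (3.11%) at least 4-fold lower. The 2009 genes had to be detected in at least 10% of the photoreceptor precursors of each library, the 7824 in at least 10% of the neurogenic set. Each filter favours genes that are high in its own group. The counts are therefore descriptions and cannot be weighed against each other. Samd11 again led, at 0.954 CPM in the neurogenic set. The first 5 genes by rank not named above were Scg3, of neurosecretory granules, Celf3, a splicing regulator, Lrp1b, Map2, of the neuronal cytoskeleton, and Thsd7a, with log2 ratios over the neurogenic set of 4.21, 4.11, 4.04, 3.97 and 3.93.

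**Figure D3:**
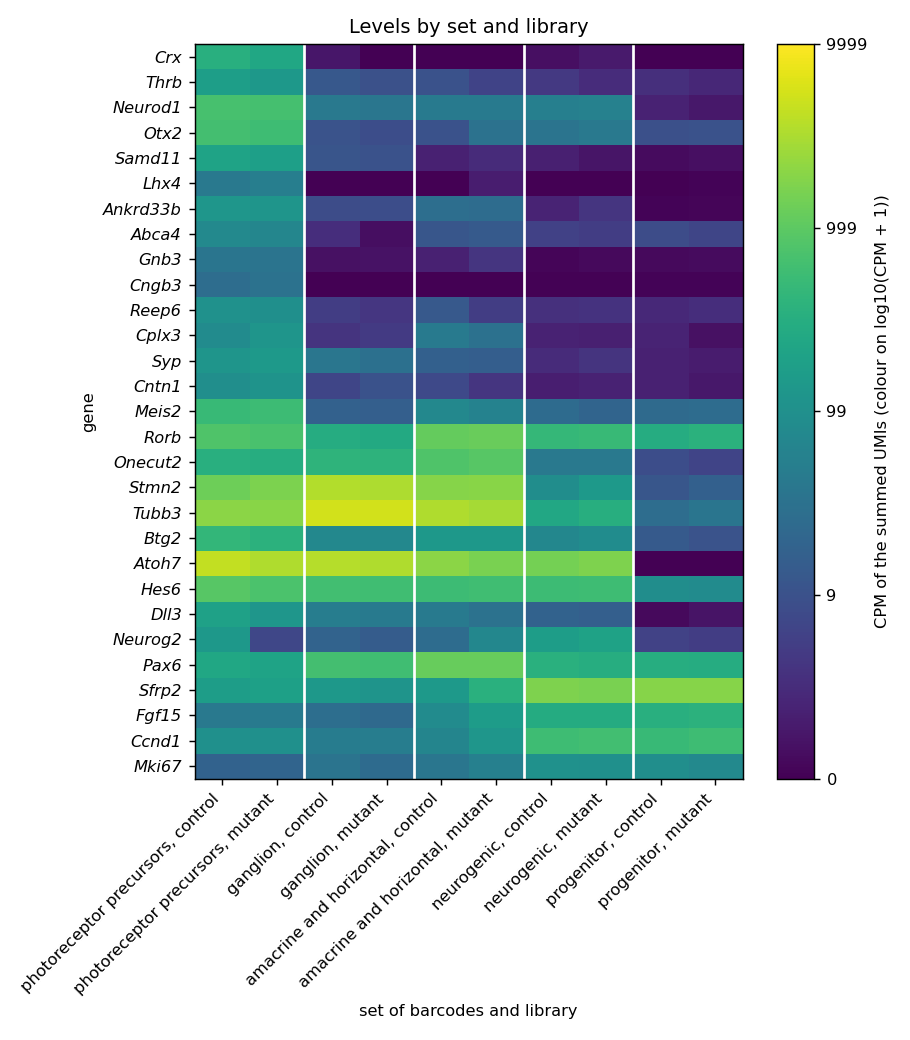
Level of the named genes (y axis) in 5 sets of barcodes in the control and mutant library (x axis), as CPM of the summed UMIs on a log10(CPM + 1) colour scale. Crx, Lhx4, Cngb3 and Samd11 are brightest in the photoreceptor precursors, Atoh7 is as bright there as in the ganglion set, and Sfrp2, Fgf15 and Ccnd1 are brightest in the neurogenic and progenitor sets.

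Genes of dividing progenitors and of red blood cells were among the lower ones. The Wnt modulator Sfrp2 had 165 and 189 CPM in the photoreceptor precursors against 1665 and 1557 in the neurogenic set, the growth factor Fgf15 40.6 and 43.5 against 293 and 292, and cyclin D1 (Ccnd1) 102 and 102 against 573 and 606. The mitotic genes Kif2c, Nuf2 and Ttk had no UMI, against 35.3, 35.0 and 21.0 CPM. The retinoic acid enzyme gene Aldh1a3 had 4 UMIs, all in the mutant (against 114 CPM in the neurogenic set). Haemoglobin genes took 0.0337% and 0.0869% of the UMIs of the photoreceptor precursors and 0.815% and 3.03% of those of the neurogenic set.

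Neurogenic genes, in contrast, remained high. Atoh7, a bHLH factor required for ganglion cells and active in many early retinal neurons, was the most abundant of its list, with 4217 CPM (4003 to 4439) in the control and 3319 CPM (3123 to 3524) in the mutant. The ganglion set had 3551 and 3360 CPM and the neurogenic set 1434 and 1671 CPM. Control members 1 and 8 held 403 of the 1453 control UMIs of Atoh7, and without them the control precursors had 3245 CPM (3051 to 3447), below the ganglion set in place of above it. In red blood cells it was at 12.1 and 8.90 CPM, values lowered by the large share of haemoglobin in their UMIs. Atoh7 was seen in 53 of the 54 photoreceptor precursors, the exception again being control member 13, with a median of 43.5 control and 36 mutant UMIs. The rule left out barcodes with Pou4f2, and Isl1, a LIM-homeodomain gene that ganglion cells express with it, had 3 UMIs in all 54 members, against 1149 and 1131 CPM in the ganglion set. Isl1 was among the further genes counted for the ganglion set, so its level there is partly set by the sorting.

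The order of the sets differed from gene to gene. Of the general neuronal genes, Tubb3 (2046 and 1966 CPM) and Stmn2 (1323 and 1630 CPM) were well above the neurogenic set (252 and 322 CPM, 90.6 and 147 CPM) and below the ganglion set (5235 and 5376 CPM, 3400 and 3253 CPM). Of 17 amacrine and horizontal genes 7 were at 0, including Ptf1a, Prdm13, Gad1 and Gad2, a smaller share than the 59.7% of all genes. In that list Onecut2, a factor shared by early cones, horizontal and ganglion cells, had 331 and 304 CPM. Among photoreceptor transcription factors Rorb, the retinoid-related orphan receptor, was most abundant (789 and 720 CPM), but it was higher still in the amacrine and horizontal set (1138 and 1217 CPM). The eye field genes Rax (308 and 326 CPM) and Six6 (328 and 220 CPM) were still present. Of 28 ciliary and traffic genes Unc119, a lipid-binding chaperone of photoreceptor proteins, led with 432 and 494 CPM against 107 CPM in all other barcodes.

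Lists of other cell types were read against the 59.7% of all genes without a UMI. At 0 were 6 of 7 macrophage genes (Csf1r, Ptprc and C1qa among them; the list summed to 0 and 2 UMIs), 3 of 7 endothelial genes (Cdh5, Tie1 and Tek; 1 and 7 UMIs), 6 of 10 lens and surface ectoderm genes (Cryaa, Cryab and Mip among them; 17 and 2 UMIs, mostly Epcam) and 3 of 6 neural crest glia genes (Foxd3 and Erbb3 among them; 55 and 42 UMIs, mostly Fabp7). Only 2 of 10 red blood cell genes and 0 of 12 periocular mesenchyme genes were at 0, and their levels are given with the comparison of the libraries. Of the 16 pigment epithelium and melanin genes 10 had a UMI. The 6 at 0 were Tyrp1, Rpe65, Slc45a2, Myrf and the 2 that the rule required to be absent, Mlana and Tyr. The list was led by Slc24a5 (337 and 248 CPM), which is also at 147 to 326 CPM in every other retinal set. Fabp7, a fatty acid-binding protein of radial glia, had 154 and 118 CPM against 7.89 and 11.3 CPM in the neurogenic set.

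**Figure D4:**
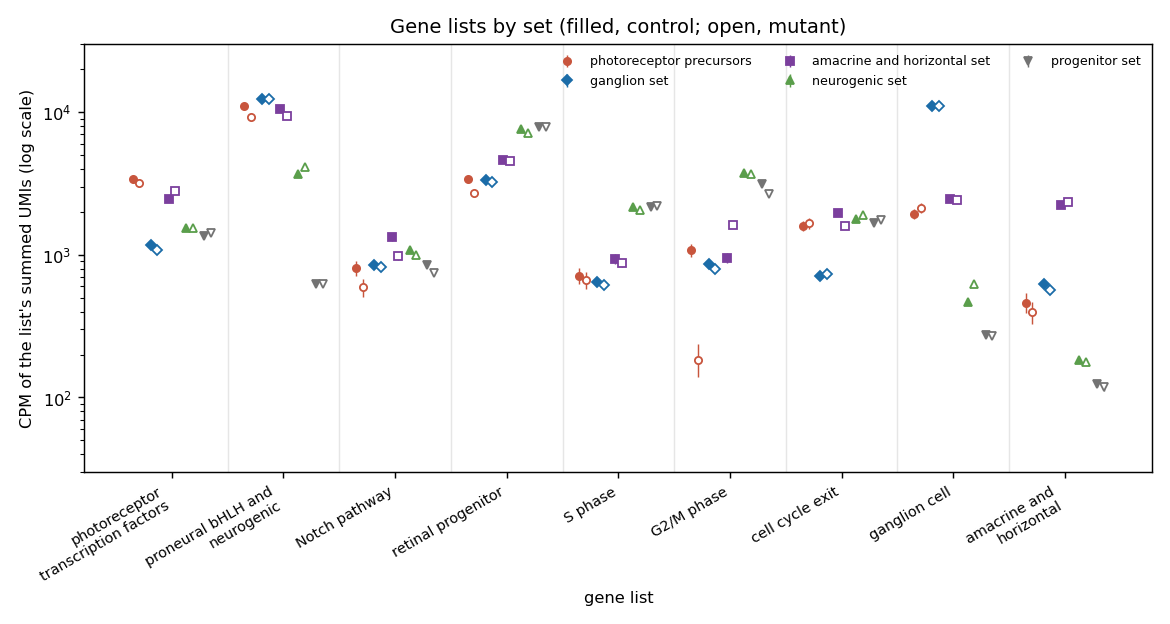
Summed level of 9 gene lists (x axis) in 5 sets of barcodes, as CPM on a log scale (y axis) with Poisson 95% intervals, filled symbols for the control and open symbols for the mutant. Photoreceptor precursors (circles) lie nearer the ganglion set than the neurogenic set for the proneural bHLH and neurogenic list. Its most abundant gene is Atoh7 in the photoreceptor precursors and Tubb3 in the ganglion set. Photoreceptor precursors lie below the neurogenic and progenitor sets for progenitor and S phase genes, and differ most between libraries in the G2/M list.

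The members also differed among themselves. Gngt2 was concentrated, with 3 control members holding 49 of its 69 UMIs and 3 mutant members 33 of 53. All 9 control members with Gngt2 also held Thrb, against 8 of the 17 without, and in the mutant 9 of 13 with and 7 of 15 without did. Both genes are among those the rule counted, which shapes how often they occur together. Atoh7 was compared between members with and without Rxrg, a split chosen after the values were seen. Its median was 24.6 UMIs per 10000 in the 9 control members with Rxrg and 37.1 in the 17 without, and 17.9 in the 6 mutant members with Rxrg and 31.0 in the 22 without. The ranges overlapped in both libraries (2.05 to 59.9 and 0 to 213 in the control). With Gngt2 as the split the medians were 34.1 and 34.7 in the control and 22.2 and 29.2 in the mutant, close together in the control. Their summed Atoh7 was 3199 CPM (2878 to 3547) with Gngt2 and 4712 CPM (4437 to 5000) without it in the control, where the 2 members richest in Atoh7 had no Gngt2, and 2749 CPM (2472 to 3049) and 3708 CPM (3441 to 3991) in the mutant.

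The mutant was then set against the control within the photoreceptor precursors, which asks whether deletion of Myrf in the eye field lineage was accompanied by changes in these neighbouring neurons. Of 4340 genes with at least 20 UMIs, 144 (3.32%) were at least 2-fold lower in the mutant and 79 (1.82%) at least 2-fold higher, and the median log2 ratio was -0.03. Without the 4 cycle-rich control members 131 of 4001 were lower and 93 higher by that measure. Ratios are log2 of mutant over control CPM with 1 UMI added to each sum. With 1 library each these are descriptions of the pools.

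The genes of the rule, which also chose the barcodes, and the leading photoreceptor genes are given first. The log2 ratio was -0.46 for Crx (-0.90 to -0.04), and it turned to 0.05 under a mitochondrial limit of 5% and to 0.39 among male barcodes, so its direction was not stable. It was -0.35 for Thrb (-0.96 to 0.23), -1.07 for Rxrg (-2.69 to 0.16, 17 and 7 UMIs), 0.31 for Prdm1 (-0.13 to 0.76), 0.05 for Neurod4 (-0.30 to 0.39), -0.02 for Neurod1 (-0.30 to 0.25) and -0.28 for Gngt2 (-0.83 to 0.25). Outside the rule it was -0.15 for Otx2 (-0.44 to 0.14), -0.23 for Samd11 (-0.77 to 0.28), 0.16 for Meis2 (-0.16 to 0.47) and 0.28 for Lhx4 (-0.84 to 1.44). Except for that of Crx, each of these intervals held 0. Of the leading genes, Tmem158 (-0.68, -1.24 to -0.15) and Dll3 (-0.60, -1.21 to -0.03) were lower in the mutant beyond counting error, with 1 control barcode holding 29.6% of the control UMIs of Tmem158. Among all 4340 genes 2363 (54.4%) were lower in the mutant, which is the background for the counts of the lists. Of the 12 photoreceptor transcription factors with at least 20 UMIs 7 were lower and 5 higher in the mutant, with a median of -0.12. That median was 0.29 among female and 0.0049 among male barcodes (7 genes each). All 5 phototransduction and outer segment genes with that many UMIs, the rule gene Gngt2 among them, were lower (median -0.28), with an interval that left out 0 for the disc protein gene Rom1 (20 and 6 UMIs, -1.49, -3.24 to -0.27), and the list summed to 862 CPM (767 to 966) in the control and 664 CPM (578 to 760) in the mutant, Gnb1, a widely expressed G protein subunit, being its most abundant gene. Of the 8 ciliary and traffic genes 3 were lower and 5 higher, with a median of 0.13. This median was -0.23 under a mitochondrial limit of 5% and -0.12 among male barcodes (5 genes each).

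Summed over the members Atoh7 was lower in the mutant (log2 ratio -0.34, -0.46 to -0.23), but not among male barcodes (0.028, -0.17 to 0.23, against -0.60 among female barcodes), and the means of log values per barcode differed by -0.048. Lower too was Hes6 at -0.29 (-0.54 to -0.04). Without control members 1 and 8, the richest control members in both genes, the ratios were 0.033 (-0.091 to 0.16) and 0.044 (-0.22 to 0.31). Without all 4 cycle-rich control members, which include the Atoh7-less member 13, they were -0.20 (-0.32 to -0.07) and -0.04 (-0.32 to 0.24). Only control members were left out. Mutant members 15 and 22, which held 203 of the 1069 mutant UMIs of Atoh7 and 79 of the 237 of Hes6, were kept. Leaving out members 1 and 8 alone lowers the control value by selection, so those ratios do not show that the libraries were alike. In the neurogenic set Atoh7 was higher in the mutant (0.22, 0.19 to 0.25). The proneural gene Neurog2 had 46 control and 2 mutant UMIs, but 41 of the 46 lay in control members 1, 8 and 13, and 5 were left when the 4 were set aside. Gadd45a, a stress and differentiation gene transiently high in newborn neurons, had 191 and 84 UMIs (-1.08, -1.48 to -0.71), with 66 of the 191 in control members 1 and 8 and a median of 2 UMIs in both libraries. Its ratio was -0.56 (-0.98 to -0.16) without control members 1 and 8, -0.80 (-1.22 to -0.39) without the 4 cycle-rich members and 0.23 (-0.51 to 1.00) among male barcodes.

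The cycle-rich barcodes carried most of the G2/M list but not of the S phase list. Of the 26 G2/M genes 7 had at least 20 UMIs, and all 7 were lower in the mutant, their median ratio being -2.49 on the log2 scale and the list's sum being 1077 CPM in the control and 183 CPM in the mutant. Control member 13 alone held 251 of the 371 control UMIs, 67.7%, and the 4 cycle-rich members 337 (90.8%). The other 22 control members had 126 CPM of the list (87.0 to 176), against 183 CPM (139 to 236) in the 28 mutant members. The 4 were set aside for their S and G2/M transcripts and no mutant member was, so the selection itself lowers the control value. These 2 values therefore give no direction between the libraries. Of the S phase genes 6 of 11 were lower and 5 higher, with a median near 0 (-0.00195), and the 4 cycle-rich members held 101 of the 246 control UMIs (41.1%). Of the retinal progenitor genes 11 of 17 were lower and 6 higher (median -0.28), and the 22 remaining control members had 2327 CPM of that list (2149 to 2516) against 2720 CPM (2543 to 2906) in the mutant, which is the opposite order to all members (3378 and 2720 CPM). Only control members were left out there. Mutant member 11, which held 185 of the 876 mutant UMIs of that list, was kept. The change of order can therefore not be read as a difference between the libraries. The retinal dehydrogenase gene Aldh1a1 (75 and 10 UMIs) had 72 of its control UMIs in control member 13.

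**Figure D5:**
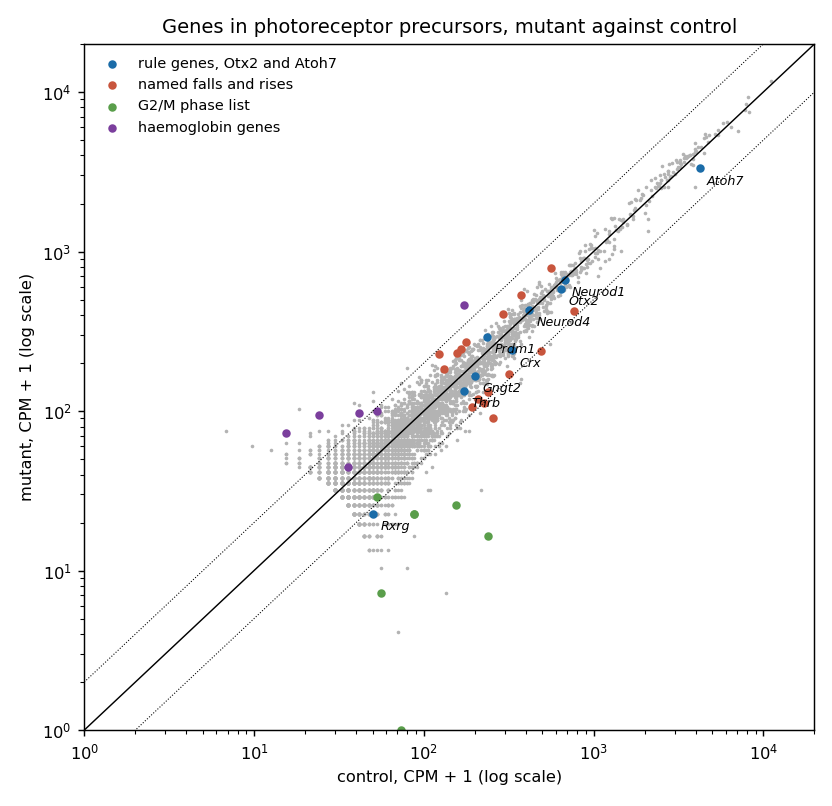
Level of each gene with at least 20 UMIs in the photoreceptor precursors of the control (x axis) and mutant (y axis), as CPM + 1 on log scales, with the line of equality and dotted lines at 2-fold. The rule genes, Otx2 and Atoh7 (blue) lie inside the 2-fold lines except Rxrg, G2/M genes (green) lie below the line and haemoglobin genes (purple) above it.

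Among genes spread over many members, those with the largest falls and rises were modest. Scg5, which encodes the chaperone of a prohormone convertase, had 88 UMIs in 25 of 26 control members and 29 UMIs in 17 of 28 mutant members (255 and 90.05 CPM, log2 ratio -1.47, -2.16 to -0.88). It was also lower in the mutant neurogenic set (-0.86, -1.04 to -0.69) and in the barcodes outside the photoreceptor precursors (-1.003). The amino acid transporter gene Slc38a2 had 78 and 36 UMIs in 25 and 19 members (-0.997, -1.63 to -0.43), with a ratio of -0.13 in the neurogenic set. The dynein light chain gene Dynlrb1 had 109 and 55 UMIs (-0.88), with -0.41 in the neurogenic set. AY036118 was at -1.05 (-0.27 in the neurogenic set), and at -0.47 (-1.12 to 0.09) after thinning to 3000 UMIs. Ube2s, which takes part in mitotic protein turnover, was at -0.85 and had 120 of its 264 control UMIs in control members 13, 1 and 8, and without the 4 cycle-rich members its ratio was -0.21 (-0.56 to 0.15), against 0.085 (0.049 to 0.12) in the neurogenic set. Srrm4, a splicing regulator of neurons, was at -0.85, and at 0.17 (-1.07 to 1.44) among male barcodes, and it was higher in the mutant neurogenic set (0.30, 0.15 to 0.46). The remaining falls were Tspan31 (-0.84) and the orphan receptor gene Nr2f6 (-0.81), the latter at -0.61 (-1.27 to 0.02) without the cycle-rich members. In the neurogenic set these were at -0.16 and 0.048 (-0.033 to 0.13).

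The rises were smaller. Polr2m, which encodes an RNA polymerase II-associated protein, had 42 UMIs in 19 control members and 73 in 25 mutant members (122 and 227 CPM, 0.88, 0.33 to 1.48), against 0.10 in the neurogenic set. The histone chaperone gene Nap1l1 was in every member of both libraries (560 and 786 CPM, 0.49, 0.21 to 0.77), against 0.000686 in the neurogenic set. Luc7l3 (0.60), Csnk2b (0.56), Bex1 (0.55), Ddx5 (0.50), Dbi (0.48) and Prdx5 (0.48) made up the rest, and the interval of Prdx5 held 0 (-0.10 to 1.08). That of Csnk2b held 0 without the barcodes marked by Scrublet (-0.07 to 1.00). Under a mitochondrial limit of 5% the intervals of Csnk2b (-0.60 to 0.81), Bex1 (-0.16 to 1.44) and Dbi (-0.22 to 0.83) held 0. In the neurogenic set the 6 genes from Luc7l3 to Prdx5 lay between -0.10 and 0.095, with Bex1 (-0.10, -0.16 to -0.04) and Prdx5 (-0.09, -0.17 to -0.01) lower in the mutant.

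Transcripts of other cells differed between the libraries too. All 6 red blood cell genes with at least 20 UMIs were higher in the mutant photoreceptor precursors (median log2 ratio 1.31), the list's sum being 337 and 876 CPM, led by Hbb-y at 171 and 463 CPM, with Alas2 at 0. All 5 periocular mesenchyme genes with at least 20 UMIs were higher as well (median 1.38; 44 and 131 UMIs, 128 and 407 CPM), led by Col1a1 over both libraries, but mutant members 3 and 14 held 110 of the 131 and control member 19 held 24 of the 44. Without these 3 barcodes, 20 control and 21 mutant UMIs were left, or 60.6 CPM (37.0 to 93.7) and 75.6 CPM (46.8 to 116). The part of these transcripts in the differences above was not tested.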

How the data were processed

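The deposited matrices held UMI counts per gene and barcode, made by the authors and not normalised. Cell Ranger 7.1.0, Seurat 4.1.1 and the mm10 build are named in the submitters' processing notes, and the matrix headers give software version 3.0.0. Whether intronic reads were counted was not given in the sources used here. No column of per-sample values was left out. The members, gene lists and tests were chosen with earlier results of these data known.

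Counts were summed over the barcodes of a set in a library and given with exact Poisson intervals, shares with exact Clopper-Pearson intervals, differences of shares with Newcombe intervals, and ratios with 1 UMI added and exact conditional binomial intervals, all at 95% and for counting error only. Barcodes of at least 200 genes and at most 15% mitochondrial UMIs passed. Named were the genes of the rule, Myrf and Tmem98, the 20 genes highest over other barcodes (at least 50 UMIs), the 8 largest falls and rises (at least 100 UMIs, no barcode above 20% of them, without haemoglobin, mitochondrial, ribosomal and sex-linked genes), and the most abundant or defining genes of each list. Scrublet in scanpy 1.11.5 marked 51 control (0.924%) and 74 mutant barcodes (1.16%), which were kept. Some genes of the lists are not reported here. The ratio was tested on simulated data. Alternatives changed the mitochondrial limit, the rule, the depth, the UMI floor, the sex of barcodes and the denominator. Python 3.11.15, numpy 2.4.6, scipy 1.17.1, pandas 2.3.3 and matplotlib 3.10.9 were used. Promoters came from RefSeq (GRCm38.p6) and gene positions from GENCODE on the same build.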

Additional observations from a re-analysis of the deposited data

How the results depend on the processing

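No paired analysis was possible because each genotype was 1 library. The share of photoreceptor precursors in the control was 0 under an upper limit of 2000 UMIs per barcode (which left no control member, so no gene was compared under it), 0.867% among male barcodes and 1.06% of retinal barcodes. In the mutant it was 0.0898% under the first limit, 0.282% with 2 UMIs of Crx, 0.198% in 1 draw of thinning to 3000 UMIs and 0.979% of retinal barcodes. The difference in share ranged from -0.248 to 0.0898 points over 17 settings and its interval held 0 in 16, the exception being that 1 draw (-0.232), which was made apart from the 20 draws described above. Genes at least 2-fold higher in the mutant numbered 79 of 4340 as reported, 47 of 2602 under a mitochondrial limit of 5%, 39 of 2043 among female and 46 of 2333 among male barcodes, 5 at a floor of 50 UMIs and 1802 at a floor of 1 UMI. Genes at least 2-fold lower numbered 144 of 4340 as reported, 129 of 2602 under the limit of 5%, 81 of 2586 after thinning, 74 of 2043 among female barcodes, 20 at a floor of 50 UMIs and 1146 at a floor of 1 UMI, so these settings also changed how many genes were compared. The median ratio of the G2/M list rested on 7 genes as reported and on fewer under these settings. It was -0.743 with 2 UMIs of Crx and -0.762 after thinning, each the ratio of 1 gene. Among male barcodes it was -4.58 (5 genes) and without the member lacking Otx2 -0.951 (3 genes). Ratios turned positive for Atoh7 (0.028), Crx (0.39), Gadd45a (0.23) and Srrm4 (0.17) among male barcodes, for Crx (0.051) and Crabp1 (0.47) under the limit of 5%, and for Crabp1 after thinning (0.31) and among female barcodes (1.65), against -0.59 for Crabp1 over all members, of whose 366 control UMIs 137 were in 1 barcode. The cause was not tested. The settings that left out cycle-rich, Otx2-less, shallow, Atoh7-rich or mesenchyme-rich members, and the 20 draws of thinning, were chosen after seeing the data. With 54 members, a gene of few UMIs could not be compared between libraries at this depth.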

Other observations

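Wdfy1, which encodes an endosomal protein, was higher in the mutant library in every retinal set of barcodes. It was picked out after its values were seen. In the photoreceptor precursors it had 3 control and 10 mutant UMIs (8.71 and 31.1 CPM, with intervals of 1.80 to 25.4 and 14.9 to 57.1), in 3 of 26 and 10 of 28 barcodes. The ganglion set had 7.15 and 43.5 CPM, the neurogenic set 5.26 and 47.7 CPM, and the progenitor set 6.33 and 48.9 CPM, so these sets differed between libraries by far more than counting error. With 1 library per genotype, genotype and any other difference between the pools cannot be told apart.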
